A study of Mus musculus with 6 samples.

Results

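P-type and vacuolar ATPases are the pumps that spend ATP to move ions and lipids across membranes. Their transcripts were read in MIN6 cells, a mouse insulinoma line from beta cells that carry a viral T antigen transgene, which still makes insulin. The members were found by gene symbol in the platform annotation (Atp1a, Atp1b, Atp2a, Atp2b, Atp2c, Atp4, Atp6v, Atp6ap, Atp7 to Atp11, Atp12a and Atp13a), which gave 59 of 18193 genes. These 59 genes have 134 probe sets with a single symbol, and each gene was read by its brightest probe set, by the mean of the 6 arrays. A further 9 protein-coding genes in the RefSeq gene table of assembly GRCm38.p6 have symbols that match but no probe set named here, and they were not analysed here.

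The study had 6 arrays of 1 cell line, in 2 groups of 3. The control group received a scrambled negative control siRNA, and the other group an siRNA against mouse Hlxb9 (symbol Mnx1 here), which encodes a homeodomain factor of beta cells and motor neurons. Both were delivered by nucleofection with a lipid reagent, and RNA was taken 72 hours later. Only transfections whose Hlxb9 protein fell by more than 75% on a western blot went onto arrays, so the knockdown arrays were picked by that result. The labels call the material sorted but name no gate, and they describe independent transfections, which are taken here as the replicates. In RNA pooled from many cells, fewer cells that express a gene and less RNA per cell cannot be told apart.

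P-type pumps are phosphorylated on an aspartate during each cycle. They include the Na,K-ATPase, which keeps sodium low and potassium high in the cell, the calcium pumps of the endoplasmic reticulum, Golgi and plasma membrane, the gastric H,K-ATPase, the copper pumps, and the P4 flippases, which move phospholipids to the cytosolic leaflet. The V-ATPase is a rotary proton pump in which the V1 sector hydrolyses ATP and the V0 sector carries protons through the membrane. In beta cells it acidifies the insulin granule, where the prohormone convertases need an acid interior, while calcium pumps refill the stores that are drawn on during secretion.

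The values are log2 signals after RMA. Array medians were 5.08 to 5.20, and the median over all probe sets of their mean signal was 5.16. Control replicate 3 stood apart, with correlations to the other arrays of 0.988 to 0.991 against 0.995 or higher among the other 5. The signal of Gapdh at the 3' end minus that at the 5' end was 2.13 log2 on this array and 0.65 to 0.78 on the other 5. It held the highest or the lowest of the 6 values for 39 of the 59 pump genes (66.1%), against 58.0% of all genes. Leaving it out moved the difference between the groups by over 1.5 times, or changed its sign, for 37 of the 59 pump genes (62.7%), against 65.0% of all genes, and 14 of the 37 changed sign. Many of these differences were near 0, and values without this array stand beside the larger ones. Of 9 beta cell markers measured, all lay above the array median, and of the markers of osteoclasts and intercalated cells (7) and of acinar cells (3) none did. Neuronal markers, which beta cells share, lay above it for 4 of 5, and those of muscle, glia, macrophages and fibroblasts for 1 each of 6, 3, 4 and 4. Of the 4 macrophage markers, Cd68, a lysosomal protein gene, differed by 0.54 ± 0.13 log2 (SE) and Csf1r, below the median, by -0.36 ± 0.10, both without overlap between the groups and neither passing (limma adjusted p = 0.645). The mean signal of the 4, in which these offset each other, was 4.35 to 4.57 on control arrays and 4.36 to 4.47 after Hlxb9 siRNA, and its part in the pump values was not tested. The Mnx1 transcript had a mean of 7.70 ± 0.17 with control siRNA against 7.41 ± 0.13 with Hlxb9 siRNA (SD, n = 3). Its difference of -0.29 ± 0.13 log2 (SE) did not pass (limma adjusted p = 0.66).

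Of the 59 pump genes, 42 had a mean signal above the array median and 17 below it. Probe sets differ in how well they bind, so these signals do not rank the genes by abundance. Of the 22 V-ATPase genes, 17 lay above the median. The 5 below it are subunit isoforms best known from kidney, osteoclast, epithelium or testis, namely Atp6v0a4, Atp6v0d2, Atp6v1b1, Atp6v1c2 and Atp6v1e2, with control means of 2.97 to 3.52. Their widely expressed counterparts Atp6v0a1, Atp6v0d1, Atp6v1b2, Atp6v1c1 and Atp6v1e1 lay above it, with control means of 10.27 to 12.49. The muscle SERCA gene Atp2a1 lay below the median, at 4.62 in controls. Atp2a2, which serves most tissues, and Atp2a3, the form known from islets and blood cells, lay above it. Among genes named as Na,K-ATPase beta subunits, Atp1b4, known from muscle, was below the median, at 2.61, and the other 3 were above it.

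**Figure D1:**
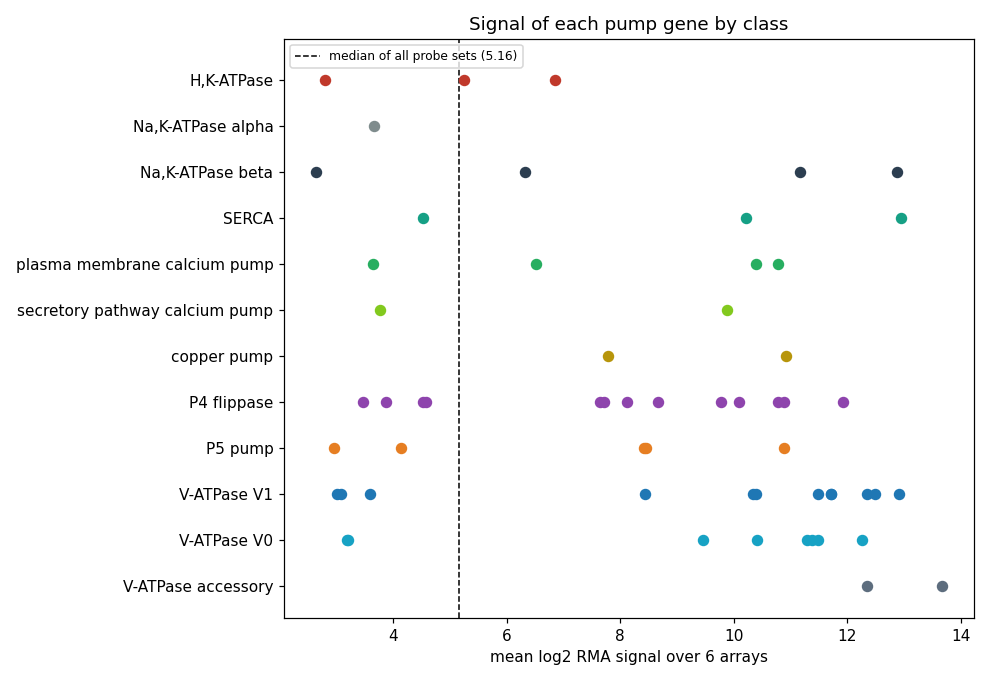
Mean log2 RMA signal over the 6 arrays (x axis) of each of the 59 pump genes, 1 point per gene, in rows by class. The dashed line is the median of all probe sets, 5.16, and 17 genes lie below it, 5 of them subunits of the V-ATPase.

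In the comparison of Hlxb9 siRNA with control siRNA, the contrast the study was built on, none of the 59 pump genes passed the threshold. Limma's adjusted p-values for them ran from 0.645 to 0.997, and over all 45037 probe sets it called 0, or 0%, with 3430 at an unadjusted p under 0.05. At an unadjusted p under 0.05 there were 4 pump genes, 2 higher and 2 lower, which is 6.78% of the members against 7.95% of all genes. The groups did not overlap for 10 pump genes, 5 higher and 5 lower, or 16.9%, against 17.3% of all genes. Both shares lie near the background. Differences ranged from -0.38 to 0.61 log2, with a median of 0.02 against 0.0023 for all genes, and 46 of the 59 (78.0%) lay within 0.2 log2 of 0, as did 72.5% of all genes. As deposited, 34 pump genes were higher and 25 lower, but after each array was centred on its median the split was 24 higher and 35 lower, and without control replicate 1 it was 27 and 32. The split of all genes moved the same way. It was 9201 higher and 8992 lower as deposited, 6986 and 11207 after centring, and 8430 and 9763 without control replicate 1.

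With array weights, which here rest mostly on the arrays numbered 2, limma called 1132 probe sets and 2 pump genes, Atp4a and Atp8a2. Leaving out control replicate 3 raised the pump genes at an unadjusted p under 0.05 from 4 to 7, and leaving out Hlxb9 siRNA replicate 1 or replicate 2 lowered them to 2. The share of all genes at that p was then 10.2%, 3.74% and 4.06%.

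**Figure D2:**
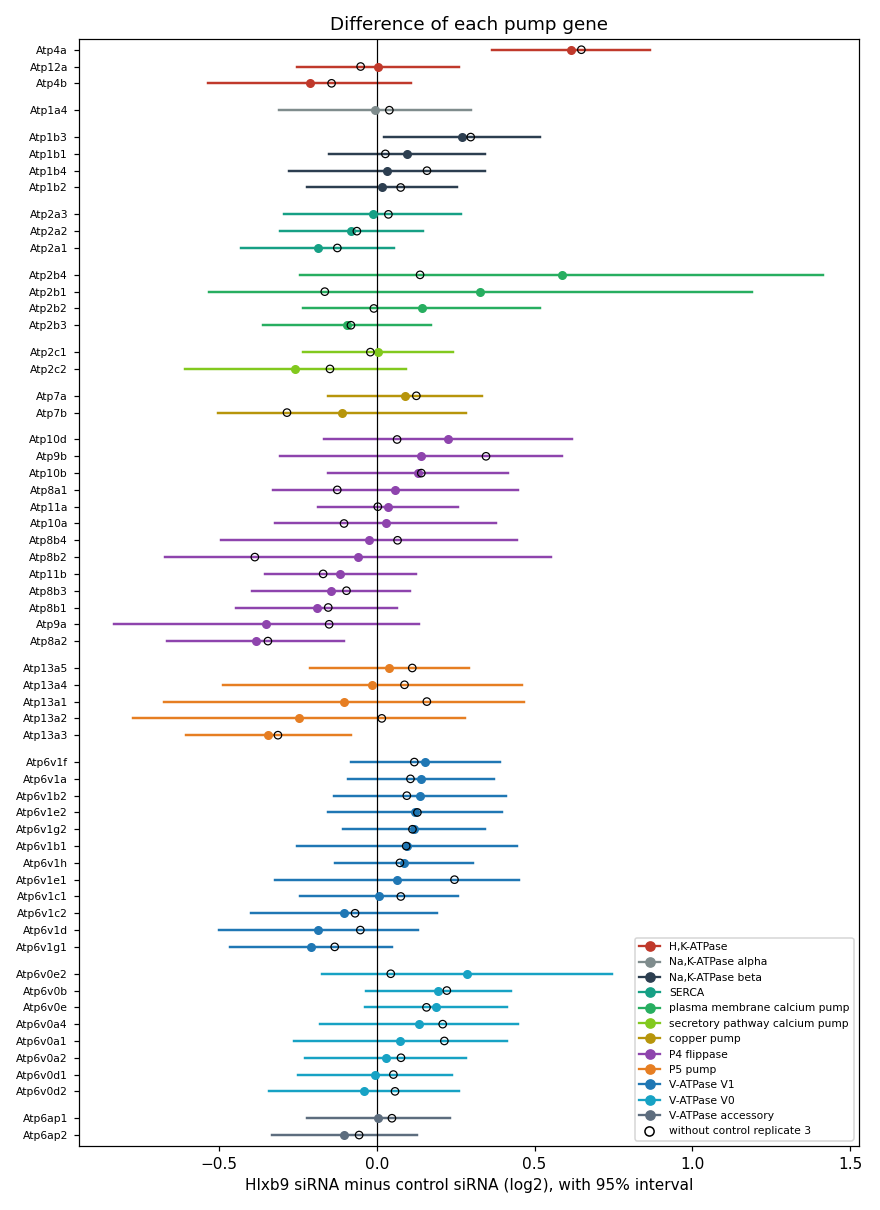
Difference in log2 signal, Hlxb9 siRNA minus control siRNA, of each pump gene (filled point) with its 95% interval from limma (line), grouped and coloured by class. Open circles give the difference without control replicate 3, and those of Atp2b1 and Atp2b4 lie far from the filled points, at -0.17 against 0.33 and at 0.14 against 0.59.

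Atp4a, the catalytic alpha subunit of the gastric proton pump that exchanges protons for potassium, had the largest difference and the smallest p of the 59. It read 6.43, 6.60 and 6.61 on the control arrays and 7.16, 7.07 and 7.25 on the Hlxb9 siRNA arrays. All 3 knockdown arrays lay above all 3 controls, and within arrays of equal number the differences were 0.74, 0.47 and 0.64 log2. The group means were 6.55 ± 0.10 and 7.16 ± 0.09 (SD, n = 3), a 1.53-fold higher signal, with a difference of 0.61 ± 0.11 log2 (SE, 95% interval 0.37 to 0.86). It did not pass over all probe sets (limma adjusted p = 0.645), and the two-sided exact permutation p was 0.1, the smallest that 3 against 3 arrays allow. Without control replicate 3 the difference was 0.65. Over 14 alternatives it lay between 0.48 and 0.66 with adjusted p from 0.0326 to 0.958, and passed only with array weights. Atp4a has 1 probe set here, brighter than 64.2% of all probe sets.

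The other H,K-ATPase genes had smaller differences. Atp4b, the glycosylated beta subunit that the gastric pump needs to reach the membrane, read 5.26, 5.30 and 5.49 in controls and 5.15, 4.91 and 5.35 after Hlxb9 siRNA. The groups overlapped, near the array median, with a difference of -0.21 ± 0.14 log2 (SE, 95% interval -0.53 to 0.11). Atp12a, the H,K-ATPase of colon and other epithelia, read 2.79 and 2.80 in the groups and lay among the dimmest 6.26% of probe sets. Of 7 gastric parietal cell markers measured, 4 lay above the array median, namely Atp4a, Atp4b, Kcnq1 and Cckbr. Apart from Atp4a none had an unadjusted p under 0.05. The intrinsic factor gene Cblif read 2.96 in controls and 2.87 after Hlxb9 siRNA, and the histamine receptor gene Hrh2 3.75 and 3.71. The mean signal over the 7 markers was 5.54 to 5.68 on control arrays and 5.55 to 5.77 on knockdown arrays.

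Among 15 measured genes of acid and potassium transport around this pump, 7 had a positive difference and 8 a negative one. The median was -0.02, and 1 (6.67%) had an unadjusted p under 0.05, against 7.95% of all genes. That gene was Car2, a cytosolic carbonic anhydrase that supplies protons, at 8.94, 9.27 and 8.78 in controls and 9.52, 9.69 and 9.39 after Hlxb9 siRNA, without overlap. Its difference was 0.54 ± 0.15 log2 (SE), or 0.43 without control replicate 3, and it did not pass (limma adjusted p = 0.645). Slc4a2, a bicarbonate exchanger of parietal and other cells, differed by -0.02, and the gastrin gene Gast by 0.32 ± 0.17, or by 0.12 and 0.20 without that array.

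The start region of Atp4a is shown because this gene had the largest difference. It is the RefSeq promoter window of 300 bases, 250 before the annotated start and 50 after it, on the plus strand of GRCm38.p6 at chr7:30711959-30712258, printed in lower case since neither motif searched occurs in it.
Atp4a: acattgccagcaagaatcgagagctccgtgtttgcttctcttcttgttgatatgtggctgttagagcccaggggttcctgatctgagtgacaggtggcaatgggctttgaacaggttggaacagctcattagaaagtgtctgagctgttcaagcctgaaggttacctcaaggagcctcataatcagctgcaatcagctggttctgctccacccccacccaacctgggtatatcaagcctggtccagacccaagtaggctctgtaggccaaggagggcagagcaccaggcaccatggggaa
The motifs were TAATTA, a core that many homeodomain proteins can bind, and CACGTG, the E-box letters. Each reads the same on both strands. TAATTA occurred in 0 of 52 promoters of the 41 pump genes found in the table and in 5.29% of 32851 promoters. That says only that these letters are not in these windows.

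For the Na,K-ATPase, all 4 genes named as beta subunits were higher as deposited, Atp1b4 among them, which was dim at 2.61 in controls. After centring, or without control replicate 1 or 2, 2 of 4 were higher. After repeated quantile normalization or without Hlxb9 siRNA replicate 2 it was 3 of 4. Atp1b3 had the largest difference of the 4. It read 10.99, 11.02 and 11.09 in controls and 11.44, 11.26 and 11.21 after Hlxb9 siRNA. The groups did not overlap, and the means were 11.03 ± 0.05 and 11.30 ± 0.12 (SD, n = 3). The difference of 0.27 ± 0.11 log2 (SE) did not pass (limma adjusted p = 0.653) and was 0.30 without control replicate 3.

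Atp1b1 read 12.96, 12.84 and 12.69 in controls and 12.92, 12.93 and 12.93 after Hlxb9 siRNA, so the groups overlapped. Its brightest probe set carries the _x_at suffix, for probes that can bind related sequences, and differed by 0.10 ± 0.11 log2 (SE), or 0.03 without control replicate 3, its lowest array. The 4 other probe sets of Atp1b1 did not give one direction, with differences from -0.50 to 0.18. The lowest came from a dim probe set at 5.34, 5.28 and 5.37 in controls and 4.76, 4.84 and 4.87 after Hlxb9 siRNA, which did not pass (limma adjusted p = 0.645). Atp1b2, the glial beta subunit, differed by 0.02 and Atp1b4 by 0.03, or by 0.08 and 0.16 without control replicate 3. The alpha subunits were read by Atp1a4 alone, the form known from sperm, at 3.59, 3.63 and 3.75 in controls and 3.41, 3.81 and 3.73 after Hlxb9 siRNA, below the array median on every array.

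FXYD proteins are small membrane proteins that tune the Na,K-ATPase. Of the 7 measured, 4 were higher and 3 lower, the median difference being 0.15 log2, or 0.09 without control replicate 3. An unadjusted p under 0.05 was held by 1 of the 7 (14.3%), against 7.95% of all genes. Fxyd3 read 4.96, 4.97 and 4.79 in controls and 5.93, 5.30 and 5.45 after Hlxb9 siRNA, without overlap. Its difference was 0.66 ± 0.17 log2 (SE, limma adjusted p = 0.645) and 0.60 without control replicate 3. Fxyd5 differed by 0.48 ± 0.39, or 0.09 without that array.

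Among calcium pumps none had an unadjusted p under 0.05. The 3 SERCA genes, whose pumps fill the endoplasmic reticulum with calcium, were lower as deposited, by 0.01 to 0.19 log2. All 3 were also lower under both rescalings, but only 2 of 3 with array weights, without control replicate 3 or without Hlxb9 siRNA replicate 1. Atp2a2 read 13.01, 12.92 and 13.01 in controls and 12.83, 12.92 and 12.94 after Hlxb9 siRNA, with a difference of -0.08 ± 0.10 (SE, 95% interval -0.31 to 0.15). Its 5 other probe sets differed by -0.02 to 0.27, and the highest of these read 8.33 on control replicate 3 against 9.45 to 9.99 elsewhere. Atp2a1 was dim, at 4.62 ± 0.12 and 4.44 ± 0.03 (SD, n = 3), and its groups did not overlap. Atp2a3 differed by -0.01, while its other probe set differed by 0.67 and read 5.23 on control replicate 3 against 6.51 to 7.03 elsewhere.

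The plasma membrane calcium pumps, which expel calcium from the cell, were higher in 3 of 4 genes as deposited and in 1 of 4 without control replicate 3, which was the lowest of the 6 arrays for Atp2b1, Atp2b2 and Atp2b4. Atp2b1 read 11.20, 11.01 and 9.63 in controls and 10.88, 10.90 and 11.04 after Hlxb9 siRNA. The difference of 0.33 ± 0.37 log2 (SE) became -0.17 without control replicate 3. Its other 2 probe sets did not show the low value, reading 10.11 and 10.07 on that array, and differed by 0.04 and 0.03. Atp2b4 read 6.81, 6.53 and 5.32 in controls and 7.08, 6.77 and 6.56 after Hlxb9 siRNA. Its difference of 0.59 ± 0.36 was 0.14 without that array. Within arrays of equal number Atp2b4 was higher after Hlxb9 siRNA in all 3 (0.27, 0.24 and 1.24 log2), and its unadjusted limma p was 0.0307 with the replicate block against 0.141 without it. Atp2b2 read 10.64, 10.30 and 10.02 in controls and 10.39, 10.46 and 10.54 after Hlxb9 siRNA. It differed by 0.14 on this probe set, or -0.0095 without control replicate 3, and by -0.32 and -0.23 on the others. Atp2b3 was dim, at 3.68 in controls.

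Atp2c1, the calcium and manganese pump of the Golgi, read 9.99, 9.80 and 9.82 in controls and 9.92, 9.86 and 9.84 after Hlxb9 siRNA. The groups overlapped, and the difference was 0.0042 ± 0.10 log2 (SE, 95% interval -0.23 to 0.24). Its 4 other probe sets differed by 0.05 to 0.32. That at 0.29 ± 0.14 read 9.47, 9.46 and 9.03 in controls and 9.63, 9.60 and 9.62 after Hlxb9 siRNA, without overlap. Atp2c2, the epithelial relative of Atp2c1, was dim, with a difference of -0.26 ± 0.15, or -0.15 without control replicate 3. Of 17 measured genes of calcium stores and calcium export, 9 were higher and 8 lower, the median difference being 0.0042 log2, and 0 had an unadjusted limma p under 0.05 (0 called).

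Of the copper pumps, Atp7a, which exports copper and loads it onto secreted enzymes, read 10.79, 10.88 and 10.95 in controls and 10.93, 10.89 and 11.07 after Hlxb9 siRNA. The difference was 0.09 ± 0.10 log2 (SE), while its other probe set differed by -0.20. Atp7b, the liver copper pump, differed by -0.11 ± 0.17, or -0.28 without control replicate 3. Of 6 copper delivery genes, 5 were higher and 1 lower, the median difference being 0.12. Atox1, the chaperone that hands copper to these pumps, had the only unadjusted p under 0.05, 16.7% of the list against 7.95% of all genes. It read 11.40, 11.51 and 10.73 in controls and 11.76, 11.73 and 11.60 after Hlxb9 siRNA. Its difference of 0.48 ± 0.20 (SE, limma adjusted p = 0.653) was 0.24 without control replicate 3.

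**Figure D3:**
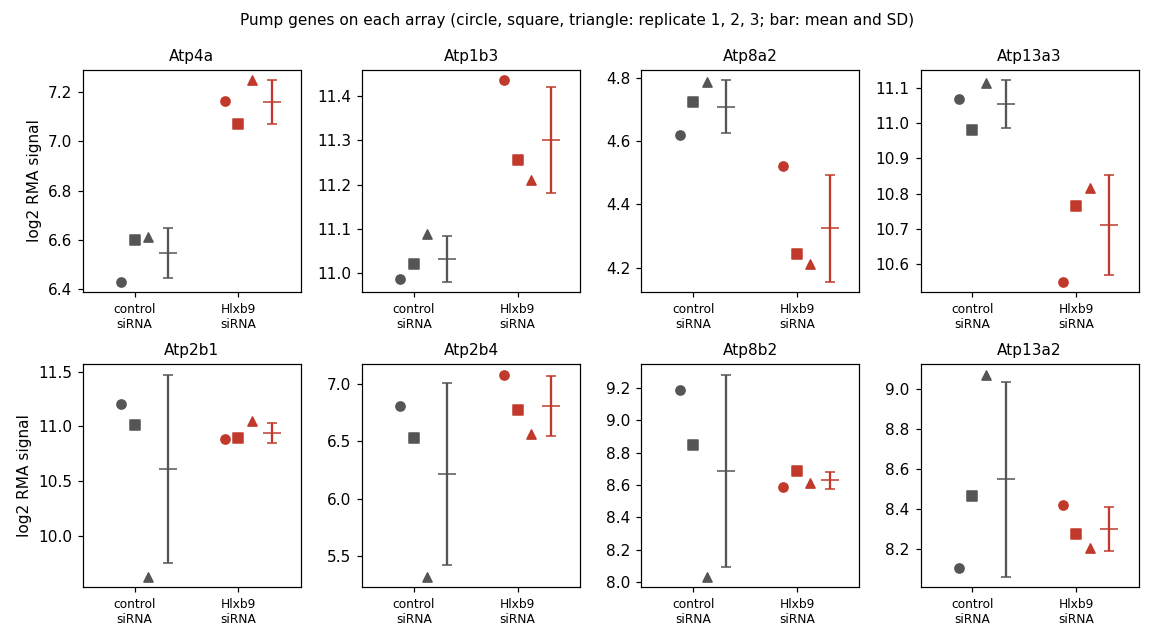
Log2 RMA signal (y axis, a separate range for each gene) of 8 pump genes on each array, control siRNA in grey and Hlxb9 siRNA in red, with circle, square and triangle for replicates 1, 2 and 3 and a bar for the mean and SD. The upper row shows the 4 genes at an unadjusted p under 0.05, whose groups do not overlap, and the lower row 4 genes on which control replicate 3 (grey triangle) is the lowest or highest array, chosen after their values were seen.

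The 13 P4 flippases were split, 6 higher and 7 lower, or 4 and 9 after centring and 5 and 8 without control replicate 3. Atp8a2, a phosphatidylserine flippase known from neurons and photoreceptors, had the smallest p of them. It read 4.62, 4.72 and 4.79 in controls and 4.52, 4.24 and 4.21 after Hlxb9 siRNA. The groups did not overlap, but all 6 values lay below the array median. The difference of -0.38 ± 0.12 log2 (SE) did not pass (limma adjusted p = 0.645) and was -0.35 without control replicate 3. Its other 2 probe sets, dimmer still, differed by -0.22 and -0.03.

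Atp8b1, the flippase whose loss causes a familial cholestasis, was the brightest of the class. It read 12.09, 11.86 and 12.09 in controls and 11.77, 11.81 and 11.89 after Hlxb9 siRNA. Replicate 3 of the knockdown lay just above control replicate 2, and the difference was -0.19 ± 0.11 log2 (SE). Atp9a, a flippase of endosomes, differed by -0.35 ± 0.21, or -0.15 without control replicate 3. The same array was the lowest for Atp8b2, which read 9.19, 8.85 and 8.03 in controls and 8.59, 8.69 and 8.61 after Hlxb9 siRNA. The difference of Atp8b2 was -0.06 ± 0.26, or -0.39 without control replicate 3. For Atp9b it was 0.14 ± 0.19 and became 0.35, while other probe sets of that gene differed by -0.14 and -0.02. The remaining bright flippases, Atp8a1, Atp10a, Atp10d, Atp11a and Atp11b, differed by -0.12 to 0.23, or by -0.17 to 0.06 without control replicate 3. Without that array Atp10d, the highest of them, went from 0.23 to 0.06, Atp8a1 from 0.06 to -0.13 and Atp10a from 0.03 to -0.10. On all 6 arrays the 3 other probe sets of Atp10a differed by -0.27 to -0.01. Atp11a differed by 0.04, and by -0.31 on its other probe set.

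Most P4 flippases need a CDC50 subunit to leave the endoplasmic reticulum. Tmem30a, the widely expressed one, read 11.60 ± 0.01 and 11.63 ± 0.08 (SD, n = 3). In the list of 9 CDC50 subunits and scramblases, 5 were higher and 4 lower, the median difference being 0.03 log2. Xkr8, a scramblase that exposes phosphatidylserine in apoptosis, had the only unadjusted p under 0.05, 11.1% of the list against 7.95% of all genes. It read 7.04, 7.18 and 6.52 in controls and 7.59, 7.49 and 7.50 after Hlxb9 siRNA. The difference of 0.61 ± 0.17 (SE, limma adjusted p = 0.645) was 0.42 without control replicate 3.

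Of the 5 P5 pumps, 4 were lower as deposited, but 3 after repeated quantile normalization or with an offset of 32 added on the linear scale, all 5 after centring, 2 with array weights and 1 without control replicate 3. Atp13a3, linked to polyamine transport, read 11.07, 10.98 and 11.11 in controls and 10.55, 10.77 and 10.82 after Hlxb9 siRNA. All 3 knockdown arrays lay below all controls, with a difference of -0.34 ± 0.11 log2 (SE, limma adjusted p = 0.645), or -0.31 without control replicate 3. A second bright probe set of Atp13a3 gave 0.27 ± 0.19, reading 10.95, 10.95 and 10.30 in controls and 11.06, 11.10 and 10.86 after Hlxb9 siRNA, and a dim one gave -0.06. The lysosomal polyamine exporter Atp13a2 read 8.11, 8.46 and 9.07 in controls and 8.42, 8.28 and 8.21 after Hlxb9 siRNA. Its difference of -0.25 ± 0.23 was 0.02 without control replicate 3. Atp13a1, which removes misplaced helices from the endoplasmic reticulum, differed by -0.10 ± 0.25, or 0.16 without that array.

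Of the 22 V-ATPase genes, 16 were higher (72.7%) and 6 lower, the median difference being 0.08 log2. Over all genes 50.6% were higher, with a median of 0.0023. Of all genes above the array median 58.5% were higher (median 0.04), and of the 17 V-ATPase genes above it 76.5% (median 0.07). Of the 22, 0 had an unadjusted limma p under 0.05 (0 called). For the 22 the split after centring was 13 higher and 9 lower (median 0.03, against -0.05 for all genes). Without control replicate 1 it was 12 and 10 (median 0.02, against -0.02). Without control replicate 3 it was 18 and 4 (median 0.08, against 0.03). On the brightest probe sets the V-ATPase differences ran from -0.21 to 0.28 log2, and 20 of the 22 lay within 0.2 log2. The median SE of a difference in this group was 0.11 log2. Among the 17 bright members, the mean over genes, set against the control mean, was -0.02, -0.03 and 0.05 log2 on the control arrays and 0.09, 0.05 and 0.03 on the knockdown arrays, so the groups overlapped.

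In the V1 sector, 9 of 12 genes were higher, or 8 after centring and 7 without control replicate 1. Atp6v1g1, a stalk subunit, read 12.93, 12.95 and 13.16 in controls and 12.74, 12.78 and 12.89 after Hlxb9 siRNA. Its groups did not overlap, and the difference was -0.21 ± 0.11 log2 (SE), or -0.13 without control replicate 3. A second probe set of Atp6v1g1 read 11.44, 11.47 and 10.79 in controls and 11.61, 11.57 and 11.57 after Hlxb9 siRNA. Its difference of 0.35 ± 0.18, a size that leans on control replicate 3, was in the opposite direction and also without overlap. This gene therefore has no single direction here. Atp6v1a, the catalytic subunit that binds and splits ATP, read 11.72, 11.62 and 11.57 in controls and 11.82, 11.71 and 11.80 after Hlxb9 siRNA, with a difference of 0.14 ± 0.10. Its other probe set differed by 0.37 and read 9.20 on control replicate 3 against 9.87 to 10.19 elsewhere. Atp6v1b2, the non-catalytic partner of Atp6v1a, differed by 0.14 ± 0.12, though its other probe sets ran from -0.17 to 0.37. The highest of these read 5.10 on control replicate 3 against 5.55 to 6.07 elsewhere. Atp6v1h, which silences the detached sector, differed by 0.09, Atp6v1f by 0.15, Atp6v1g2, the neuronal stalk form, by 0.12, Atp6v1c1 by 0.0076 and Atp6v1d by -0.18. Without control replicate 3 Atp6v1d differed by -0.05.

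In the V0 sector, 6 of 8 genes were higher, or 5 after either rescaling and 8 without control replicate 3. Atp6v0e read 12.22, 12.16 and 12.10 in controls and 12.40, 12.31 and 12.34 after Hlxb9 siRNA. The groups did not overlap, with a difference of 0.19 ± 0.10 log2 (SE, 95% interval -0.04 to 0.41). Atp6v0b, a ring subunit, read 11.37, 11.35 and 11.44 in controls and 11.61, 11.64 and 11.49 after Hlxb9 siRNA, again without overlap. Its difference was 0.20 ± 0.10, with 0.23 and -0.25 on its other probe sets. The largest value in the sector, 0.28 ± 0.20 for Atp6v0e2, was 0.04 without control replicate 3. Atp6v0a1, which sets where the pump sits in the cell, differed by 0.07 ± 0.15, or 0.21 without control replicate 3. Its dimmer probe sets differed by 0.34, 0.47 and 0.78, and all were lowest on control replicate 3. They read 6.78, 4.21 and 5.62 on that array, against at least 7.10, 5.06 and 6.83 elsewhere. Atp6v0d1, the link between ring and stalk, differed by -0.0059 ± 0.11.

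The accessory subunits help the pump assemble and reach its membrane. Atp6ap2, the prorenin receptor, read 13.65, 13.69 and 13.81 in controls and 13.63, 13.64 and 13.58 after Hlxb9 siRNA. The knockdown arrays all lay below the controls, by a difference of -0.10 ± 0.10 log2 (SE), or -0.06 without control replicate 3, and its other probe sets gave -0.10 and -0.08. Atp6ap1, a partner of the pump in secretory granules, differed by 0.0043 ± 0.10, with a 95% interval of -0.22 to 0.23.

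**Figure D4:**
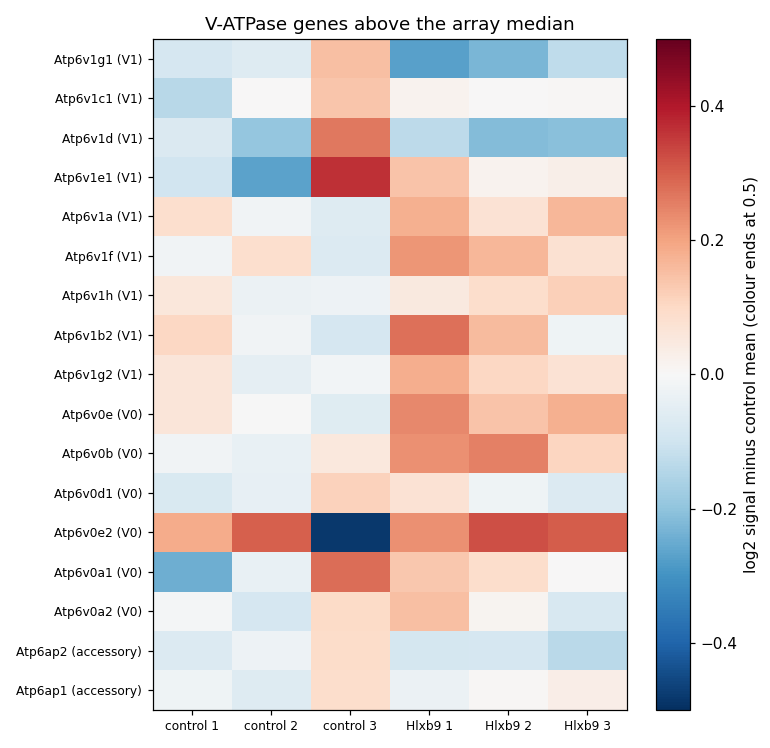
Log2 signal minus the control mean, as colour, of the 17 V-ATPase genes above the array median (rows, by sector) on each of the 6 arrays (columns). The darkest cell is Atp6v0e2 on control replicate 3. Several rows lie above the control mean on all 3 Hlxb9 siRNA arrays, among them Atp6v0e, Atp6v0b, Atp6v0e2, Atp6v1a, Atp6v1f, Atp6v1g2, Atp6v1h and Atp6v1e1. Atp6v1g1, Atp6v1d and Atp6ap2 lie below it on all 3. For Atp6v0e2 control replicate 3 lowers the control mean, at 10.67 against 11.33 and 11.44 on the other controls and 11.37 to 11.47 after Hlxb9 siRNA.

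Assembly and regulation genes of the V-ATPase had 8 of 14 measured members higher and 6 lower, the median difference being 0.02 log2. Here 3 of 14 (21.4%) had an unadjusted limma p under 0.05, against 7.95% of all genes, and 0 passed. Control replicate 3 was the highest or lowest array for 10 of the 14. Without it 2 of 14 had such a p, against 10.2% of all genes. The groups did not overlap for 5 of the 14 (35.7%), against 17.3% of all genes. All 14 lay above the array median, where on all 6 arrays the shares over all genes were 8.77% and 20.4%. The other gene lists held 0 to 16.7% at that p. Their shares without overlap ran from 11.8% to 66.7%. Those of copper delivery (4 of 6, 66.7%) and of the chloride carriers (3 of 6, 50%) were larger than the share of the assembly and regulation genes. Dmxl1, of the rabconnectin complex that rejoins the sectors, read 8.78, 8.79 and 8.79 in controls and 8.20, 8.36 and 8.57 after Hlxb9 siRNA, a difference of -0.41 ± 0.12 (SE, limma adjusted p = 0.645). Vma21, a chaperone of V0 assembly, read 11.02, 11.12 and 11.04 in controls and 10.73, 10.88 and 10.80 after Hlxb9 siRNA, a difference of -0.26 ± 0.10 (limma adjusted p = 0.653). In both the groups did not overlap. Without control replicate 3 the differences were -0.41 for Dmxl1 and -0.27 for Vma21. Rogdi, another rabconnectin partner, differed by 0.40 ± 0.17, or 0.22 without that array. Tfeb, a factor that drives lysosomal genes, differed by -0.38 ± 0.18, or -0.17 without that array, and its relative Tfe3 by -0.0014. Of the 6 chloride carriers that balance charge in acidic compartments, 4 were higher and 2 lower, the median difference being 0.08, and 0 had an unadjusted limma p under 0.05.

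The E-box CACGTG lies within sites bound by Tfeb and its relatives in lysosomal promoters. It occurred in 7 of the 52 pump gene promoters (13.5%), 4 of 17 for V-ATPase genes and 3 of 35 for P-type genes, and in 7.15% of all 32851 promoters of this length. The longer TCACGTGA, which contains it, occurred in 5 of the 52 (9.62%) and in 0.974% of all. The windows of 30 bases around these E-boxes are shown, since they are a sequence feature that some pump genes share and the member rule did not use. They are from RefSeq promoters of GRCm38.p6, 5' to 3' on the gene's strand, with the E-box in capitals.
Atp6v0b: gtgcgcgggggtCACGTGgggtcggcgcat
Atp6v0d1: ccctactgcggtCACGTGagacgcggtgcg
Atp6v0e: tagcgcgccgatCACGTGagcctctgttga
Atp6v1a: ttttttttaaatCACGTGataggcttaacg
Atp1b3: ccgagcggggcaCACGTGctgccggttccc
Atp2b1: cgcgggccgcgtCACGTGaccgcgcccagc
Atp7a: cgtgctccctttCACGTGacgtggaccatt
The windows lie at chr4:117887348-117887377 (minus strand) for Atp6v0b, chr8:105566050-105566079 (minus) for Atp6v0d1, chr17:26676387-26676416 (plus) for Atp6v0e and chr16:44139373-44139402 (minus) for Atp6v1a. Those of the P-type genes lie at chr9:96363919-96363948 (minus) for Atp1b3, chr10:98914638-98914667 (plus) for Atp2b1 and chrX:106027125-106027154 (plus) for Atp7a. Atp6v0b holds a second E-box in its promoter. The differences of these 7 genes were 0.20, -0.0059, 0.19 and 0.14 log2 for the V-ATPase genes in the order printed, and 0.27, 0.33 and 0.09 for the P-type genes, with Atp2b1 at -0.17 without control replicate 3. A match is a description of the letters and not a bound site.

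How far a gene's value depends on its probe set was counted over the members. Of the 36 pump genes with several probe sets, 19 had at least 1 other probe set with a difference of the opposite sign, and for 14 it was opposite by 0.1 log2 or more. Within groups, 12 of the 59 genes had a control SD above 0.3 log2, and control replicate 3 was the highest or lowest of all 6 arrays in each of the 12. After Hlxb9 siRNA 3 genes had an SD above 0.3. The median SD over the 59 genes was 0.131 in controls and 0.078 after Hlxb9 siRNA, against 0.166 and 0.113 over all genes.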

How the data were processed

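Biotinylated cRNA from 6 ug of total RNA was put on Affymetrix mouse arrays. The authors deposited log2 signals from RMA, per the submitters' processing notes, which also name Partek, with versions and settings not given in the sources used here. Of 45101 probe sets, 64 control probe sets were set aside. In the platform annotation 34945 have 1 symbol, 932 have several and 9160 are unnamed here, and all 59 members matched RefSeq by Entrez identifier with the same symbol. The 2 groups were compared with limma 3.58.1 (lmFit, eBayes; R 4.3.3, statmod 1.5.0) without covariates. Tests were two-sided, with p-values adjusted by Benjamini-Hochberg over 45037 probe sets at 0.05. Errors of differences are limma's standard errors. The script was tested on simulated data.

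Members, gene lists and the naming rule were chosen with earlier results of these data known. The rule names Atp4a, the brightest member and the member with the smallest p of each class, and members at an unadjusted p under 0.05; others are named for level, role or range. With arrays, precision is bounded by their number, 3 a group. Deviations from group means correlated at 0.15, 0.16 and 0.20 between arrays of the same number and at 0.072 or lower between different numbers, which counts as pairing here, although the labels state no shared day. The values reported come from the unpaired fit, and the fit with the replicate block was an alternative. That block, 3 scalings or offsets, a dim filter, another variance prior, array weights, other probe set choices and each array left out were alternatives.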

Additional observations from a re-analysis of the deposited data

How the results depend on the processing

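Of 249 values of the other 17 named genes under the alternatives, 229 kept their direction and side of the threshold, 19 changed sign and 1 newly passed (Atp8a2 with array weights, -0.43, limma adjusted p = 0.0446). With array weights limma called 1132 probe sets and 2 pump genes, and Atp4a passed at 0.54 (adjusted p = 0.0326). With each array left out, 0 probe sets and 0 pump genes were called, and Atp4a lay between 0.56 and 0.66. The 4 pump genes at an unadjusted p under 0.05 became 11 with the offset of 32, 11 with array weights, 7 with a variance trend and robust prior, 2 when probe sets were averaged per gene, and 2 to 7 with an array left out. The share of all genes at that p moved too. From 7.95% it became 10.9% with the offset, 24.6% with array weights and 3.74% to 10.2% with an array left out. For the variance trend and the averaged probe sets that share is not given here. With the replicate block the count of pump genes was again 4, with 9.19% of all genes at that p. Of these 4 pump genes 3 were shared, Atp2b4 standing in place of Atp1b3, and no call changed. Signs changed for Atp2c1 (-0.048 after centring, -0.021 after quantile normalization, -0.032 to 0.065 with an array left out), Atp1a4 (0.032 after quantile normalization, 2.67e-04 with the offset, 0.10 with array weights, -0.087 to 0.12 with an array left out), Atp2b1 (-0.060 with array weights, -0.17 to 0.62 with an array left out), and, with the mean of probe sets, Atp1b1 (-0.10), Atp2a2 (0.073), Atp6v1g1 (0.031) and Atp7a (-0.057). With plain _at probe sets alone Atp1b1 stood at -0.50, Atp6v1g1 at 0.35 and Atp7a at -0.20, and Atp4a has none. The cause was not tested. Precision is limited by 3 arrays a group.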
